A study of Homo sapiens with 3 samples.

Results

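The regions described here are sites of RNA polymerase II (Pol II) that were listed with the CK2 inhibitor TBBz, had no counterpart with the vehicle DMSO, and had another Pol II region of the TBBz list close by. A region of the TBBz list qualified when no DMSO centre lay within 2000 bp of its own centre and at least 1 other TBBz centre lay within 10000 bp. Of the 24782 regions in the TBBz list, 5236 (21.1%) had no DMSO centre within 2000 bp, and 2018 of these (8.14% of the list) also had the neighbour. They are called grouped TBBz-only regions below. The 3218 TBBz-only regions without a neighbour are called lone, and TBBz regions with a DMSO centre within 2000 bp are called partnered. The 3 lists of the series held 59983 regions in all. Both Pol II lists chose the set, so its distances to DMSO and to TBBz regions are given as descriptions only. The CK2α list and the place of a region in its list were not used by the rule.

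All samples were LNCaP, a human prostate carcinoma line that responds to androgen, between passages 40 and 45. They were kept for 3 days in charcoal-filtered serum, which is poor in steroids, and then received 100 nM dihydrotestosterone (DHT), the hormone that activates the androgen receptor. The Pol II samples were cells with 25 μM TBBz and DHT and cells with DMSO and DHT, each exposed for 2.5 hours in all and to DHT in the final 1.5 hours, and both were precipitated with antibody N-20. The CK2α sample was cells with DHT and no inhibitor, so CK2α in the presence of TBBz was not analysed here. Its treatment label gives 2.5 hours of DHT and its protocol 1.5 hours, and which of these applies is not known, so every comparison with CK2α may set cells against each other that had DHT for unequal times. There was 1 library per group, from 1 cell line. The spread between replicates is unknown, and no difference between conditions was tested. The source name of both Pol II libraries mentions TBBz, and the treatment labels tell them apart. A single compound was used, so loss of CK2 activity and other effects of TBBz cannot be told apart. The lists hold a region or do not, and more cells with Pol II at a site cannot be told apart from more Pol II per cell. Positions are in hg19, counted from 1.

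Pol II gathers at promoters, often pauses a short way downstream, and then moves through the gene body as it makes RNA, with elongation factors setting how it leaves the pause and how fast it travels. CK2 is a serine/threonine kinase with many substrates, CK2α is a catalytic subunit of it, and TBBz is a brominated benzimidazole that competes with ATP in its active site. The title of the series concerns CK2 and transcriptional elongation, and its design asks how Pol II binding differs when CK2 is inhibited. Regions along a stretch with no DMSO counterpart bear on the part of that question that lies away from the shared sites. No annotation or genome of hg19 was used, so no gene, exon or strand is given for any region and no sequence is printed.

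Having a neighbour within 10 kb was not particular to TBBz-only regions. Of these, 38.5% (37.2 to 39.9%) had one, against 46.4% (45.7 to 47.1%) of partnered TBBz regions. In the DMSO list it was 34.5% of DMSO-only regions and 39.9% of those with a TBBz centre within 2000 bp. Most grouped TBBz-only regions did not stand in long strings. Of the 2018, 1260 (62.4%) had a single TBBz neighbour within 10 kb, 537 had 2, 160 had 3, 55 had 4, 5 had 5 and 1 had 6. The neighbour was often a site that was also listed with DMSO. For 945 regions (46.8%, 95% interval 44.6 to 49.0%) every neighbour was partnered, for 764 (37.9%, 35.7 to 40.0%) every neighbour was TBBz-only, and for 309 (15.3%, 13.8 to 17.0%) there were both kinds. The 95% intervals given with shares are binomial, by the exact Clopper-Pearson method. They cover counting error only, and since neighbouring regions share their stretch of genome they are too narrow.

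Runs were then formed by joining grouped regions whose successive centres were at most 10 kb apart. The 2018 regions fell into 1428 runs, of which 945 held 1 grouped region, 402 held 2, 64 held 3, 11 held 4, 3 held 5 and 3 held 6. Runs of 3 or more held 269 regions, 13.3% of the set (11.9 to 14.9%). Strings of closely spaced regions were therefore a small portion of the set, and pairs and regions beside a partnered site made up the rest. The regions that just met the distance rule lay 2001 to 2014 bp from DMSO, as at chr8:27632001-27632201, and the nearest ones left out lay 1982 to 1997 bp away. On the neighbour rule the last ones in lay 9960 to 9996 bp from a TBBz centre and the first ones out 10009 to 10035 bp.

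The same rule with the Pol II lists exchanged gave the count in the other direction. It found 1051 grouped DMSO-only regions among the 21819 of the DMSO list, which is 4.82%, out of 3042 DMSO-only regions (13.9%). The count was 2018 with TBBz against 1051 with DMSO, a ratio of 1.92. The TBBz list was longer and its library deeper, at 22345614 tags against 15466579 with DMSO. When the TBBz list was shortened to its first 21819 regions, the counts were 1329 with TBBz and 1251 with DMSO, a ratio of 1.06. Condition-only regions, grouped or lone, then numbered 3180 with TBBz and 3823 with DMSO, a ratio of 0.832. Both ratios were thus lower at equal length. The places dropped are those where TBBz-only regions were most frequent, with 18.9% grouped and 52% lone in the last 10% of the list. A fall in the TBBz count therefore followed from the shortening. Shortening also took partners away from DMSO regions, with the DMSO list unchanged. DMSO-only regions rose from 3042 to 3823, and grouped ones from 1051 to 1251. The ratios at equal length were thus lowered from both sides, and they do not measure the size of an excess. List length cannot be told apart from depth here. For the longer runs the lists differed at either length, but equal length does not make the libraries alike. In the full lists 12.6% of tags lay in regions with TBBz, a mean of 114 per region. With DMSO these values were 6.79% and 48.1. Whether the longer runs follow from this was not tested. Runs of 3 or more numbered 81 with TBBz and 21 with DMSO, and 61 and 27 at equal length. Runs of 4 or more numbered 17 with TBBz and 1 with DMSO, and 14 and 1 at equal length. The DMSO run was chr15:99331407-99352760, with 5 regions. With 1 library each, these counts describe the lists and no test was made.

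**Figure D1:**
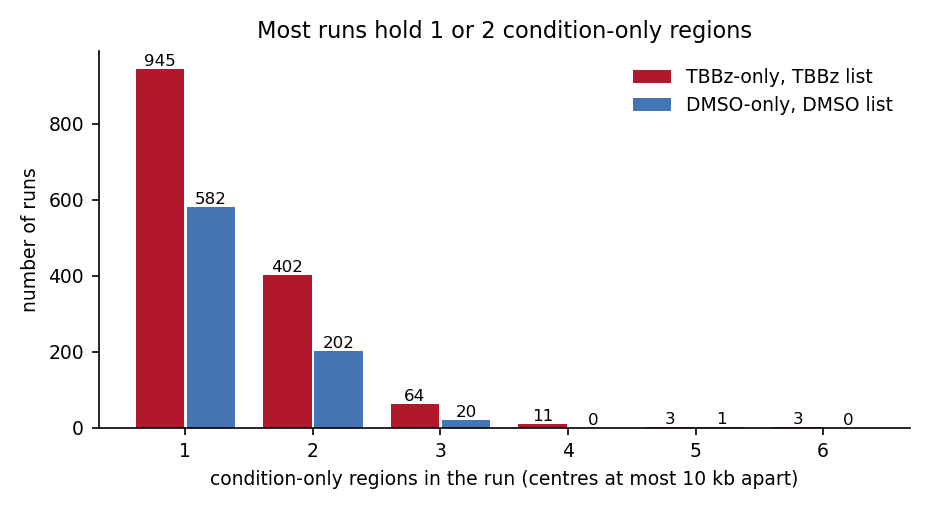
Number of runs (vertical axis) by how many condition-only regions they hold (horizontal axis), for grouped TBBz-only regions of the TBBz list (red) and grouped DMSO-only regions of the DMSO list (blue), 1 library each. Runs of 1 number 945 with TBBz and 582 with DMSO, and runs of 4 or more 17 and 1.

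The 3 runs of 6 regions lay on chromosomes 2, 14 and 12. The run at chr2:189163674-189191821 spanned 27947 bp between its outer centres. Its regions came as a single first site, close pairs 1346 and 1795 bp apart, and a last site, with 7768 to 8919 bp between these. DMSO regions stood on both sides, 6117 bp before the first and 6064 bp after the last, and there was none inside. The run at chr14:30203997-30227272 spanned 23075 bp, with gaps of 1541 to 8487 bp. Its nearest DMSO centres were 33959 bp before it and 13292 bp after it, and the nearest CK2α centre was 169418 bp away. The run at chr12:34488811-34508035 spanned 19024 bp and was 71651 bp from the nearest DMSO centre. It stood less than 1 Mb from a part of the chromosome where 2 Mb or more are free of regions in all 3 lists.

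Runs of 5 stood at chr10:54965053-54985327, chr17:2287130-2302896 and chr11:113969617-113981911. The chromosome 17 run was the strongest of these by place in the list, where its regions stood at 6164, 6348, 7577, 10685 and 15825 of 24782. The later a region stands in the list, the weaker it is taken to be here, since the deposited lists follow the numbering of candidates and hold no tag count per region. The chromosome 11 run stood late, at places 20012 to 21780. Its regions fell into a pair 599 bp apart and, 9885 bp on, a trio with gaps of 923 and 687 bp.

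Among the 11 runs of 4, chr16:765074-778232 reached the earliest place, 3122 for its member chr16:771161-771361, and the others of that run stood at 9144, 13381 and 13787. The run at chr17:17713266-17723175 was even, with places of 7578, 10154, 10503 and 10597, and ended 3822 bp before a DMSO centre. Near-regular spacing was seen at chr6:3355938-3381386, with gaps of 7548, 7936 and 9764 bp, and at chr15:101429546-101443102, with gaps of 4522, 3882 and 4952 bp. The remaining runs of 4 were chr18:55967277-55989414, chr12:65063372-65082208, chr13:95865732-95883865, chr2:181654647-181669321, chr15:89658809-89672951, chr8:80978230-80990936 and chr6:34504261-34514552. With 3 runs of 3, the widest of that size, they make up the 20 longest. These were chr18:55862551-55879560, chr4:77639343-77654811 and chr5:107460558-107475424.

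The 20 longest runs held 86 regions, and 0 of the 20 had a DMSO region or a partnered TBBz region between their outer members. Of the 20, 5 lay within 1 Mb of the end of a chromosome's listed regions or of a part with 2 Mb or more free of regions. In 12 of the 20 every member was over 10 kb from DMSO. The widest gap was at chr18:55967277-55989414, whose members were 78555 to 100492 bp from the nearest DMSO centre. The chromosome 4 run came nearest, with its first member 2012 bp from DMSO. Of the 81 runs of 3 or more, 66 had a partnered TBBz region within 50 kb, and in all 66 it lay outside the run, with every member on 1 side of it, as in all 14 such DMSO runs. This is a description, since both Pol II lists chose the set. The distances of the rule mostly keep partnered sites out of narrow gaps but do not bar them from wider ones. The share changed with these distances: it was 84.6% with a partner distance of 1 kb and 74.6% with a neighbour distance of 20 kb. The median distance from the run to that partnered region was 9336 bp with TBBz and 12927 bp with DMSO. Without strand or annotation, that side cannot be called upstream or downstream.

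**Figure D2:**
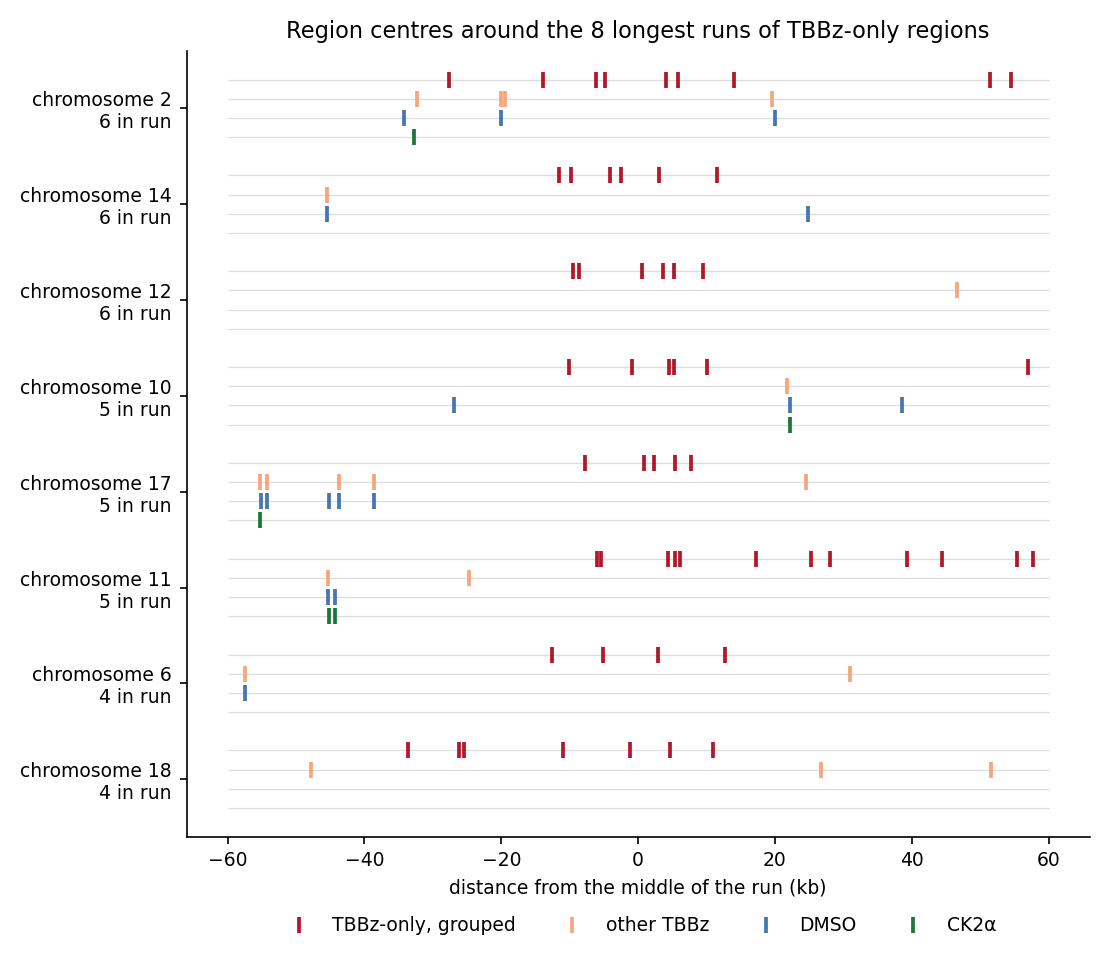
Region centres (ticks) within 60 kb of the middle of the 8 longest runs, by distance from that middle in kb. Each run has a line for grouped TBBz-only regions, other TBBz regions, DMSO regions and CK2α regions. No DMSO tick lies between the outer members of a run, and on chromosome 11 further grouped TBBz-only regions follow to the right of the run of 5.

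Runs were broken wherever a gap passed 10 kb, so grouped regions were also counted between neighbouring DMSO centres. Of 1358 such stretches with a grouped TBBz-only region between DMSO centres on both sides, 901 held 1, and 36 held 4 or more (191 regions). In the other direction, 7 of 792 stretches between TBBz centres held 4 or more grouped DMSO-only regions. At equal list length the counts were 27 of 921 with TBBz and 9 of 915 with DMSO. The greatest number in a stretch was 18 with TBBz and 5 with DMSO, and 18 and 9 at equal length.

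The stretch with 18 was on chromosome 11, where the grouped regions reached over chr11:113969617-114069300 and 2 lone TBBz-only regions were also present. The DMSO centres that bound it were 339687 bp apart, 38226 bp before the first grouped region and 201978 bp after the last. Successive grouped regions were 599 to 17088 bp apart, with a median gap of 2755 bp. The regions nearest the left DMSO centre stood latest in the list: the first 5 were at places 20506, 21779, 20507, 20012 and 21780. Farther right the places were earlier. The earliest were 9032 at chr11:114050479-114050679 and 9907 at chr11:114030985-114031185. The last 3, at chr11:114051327-114051527, chr11:114068415-114068615 and chr11:114069100-114069300, stood at 13850, 12673 and 14224. The nearest CK2α centre to any of the 18 was 38295 bp away, close to the DMSO centre on the left.

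Chromosome 18 had the next largest number. Between DMSO centres 328327 bp apart there were 12 grouped and 5 lone TBBz-only regions over chr18:55890903-56212086, with places from 10871 to 22871 and no CK2α region. The stretch at chr18:55819401-55879560, shortly before it, held 6 more between DMSO centres 72252 bp apart. The 1 Mb window chr18:55000001-56000000 accordingly held the most grouped regions of any, 20 of its 34 TBBz regions, beside 12 DMSO and 9 CK2α regions. On chromosome 17, 7 grouped regions stood over chr17:2287130-2394540, which includes the run of 5 above. Besides chr18:55819401-55879560, 7 stretches held 6: chr2:189163674-189191821, chr2:189229000-189269968, chr14:30203997-30227272, chr6:34566698-34626998, chr13:95844160-95883865, chr15:89658809-89694520 and chr12:34488811-34508035. The 11 stretches with 6 or more held 85 grouped regions, and 1 of these, in the chromosome 13 stretch, had a CK2α centre within 1 kb. The share was 6.29% in the whole set and 42.2% among all TBBz regions. Between the bounding DMSO centres, the stretches on chromosomes 11, 17, 6, 13 and 15 held 1 CK2α region each, and the others held none. These stretches were chosen after their values were seen.

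The set was spread thinly otherwise. Grouped regions occurred in 785 windows of 1 Mb, 305 of which held 1, and 106 windows with 5 or more held 36.4% of the set. Dense windows were of unlike kinds. The windows chr9:140000001-141000000, chr16:1-1000000 and chr19:1000001-2000000 held 17, 12 and 11 grouped regions among 49, 51 and 72 TBBz regions, beside 29, 40 and 52 DMSO regions. The window chr11:114000001-115000000 held 12 among 15 TBBz regions, beside 2 DMSO regions. In chr21:22000001-23000000, 11 grouped TBBz-only regions stood beside 16 grouped DMSO-only regions, so that the lists differed in both directions there. By chromosome, the share of the TBBz list made up by grouped regions ran from 4.51% on chromosome X (3.02 to 6.45%) to 12.1% on chromosome 21 (8.99 to 15.9%), leaving aside chromosome Y with 11 of 83. Chromosome 18 had 10.4% (7.58 to 13.8%) and chromosome 13 had 5.19% (3.32 to 7.69%), against 8.14% in the whole list.

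Distances from grouped regions to the nearest DMSO centre had a median of 8334 bp (quartiles 5449 and 17763 bp). Of the 2018, 440 were 2 to 5 kb away, 840 were 5 to 10 kb away, 284 were 10 to 20 kb away, 284 were 20 to 50 kb away and 170 were farther than 50 kb. Lone TBBz-only regions were at a median of 35500 bp. Since a neighbour within 10 kb can itself be partnered, part of this difference follows from the rule.

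Within the set, spacing was measured between successive grouped regions and toward partnered ones. Successive grouped regions of a run were most often close together: of 590 such gaps with TBBz, 153 were under 1 kb and 103 were 1 to 2 kb, and each later bin of 1 kb up to 10 kb held 35 to 49. The median gap was 2792 bp with TBBz and 2128 bp with DMSO (246 gaps). The peak caller kept centres about 500 bp apart, and the shortest gaps were 480 bp with TBBz and 505 bp with DMSO. Toward partnered regions the spacing was wider, but this follows largely from the rule and no conclusion is drawn from it. A grouped TBBz-only region must lie beyond the partner distance from every DMSO centre. Partnered TBBz regions with a neighbour stood at a median of 32 bp from a DMSO centre, so short distances to them are mostly excluded. Gaps within a run also end at 10 kb, whereas distances to partnered regions have no upper limit. The nearest partnered region of the same list was 2 to 5 kb away for 385 grouped regions with TBBz and 5 to 8 kb away for 501, a ratio of 1.30. With DMSO these numbers were 135 and 333, a ratio of 2.47, so the step at 5 kb was larger in the DMSO list. The caller required a region to stand 4-fold above the 10 kb around it, a window that reaches 5 kb to either side. It removed 35.3% of the candidates with TBBz and 53.7% with DMSO. A weak site near a strong one can be dropped in this way in 1 list and not in the other, and the part of this filter in the set was not tested.

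**Figure D3:**
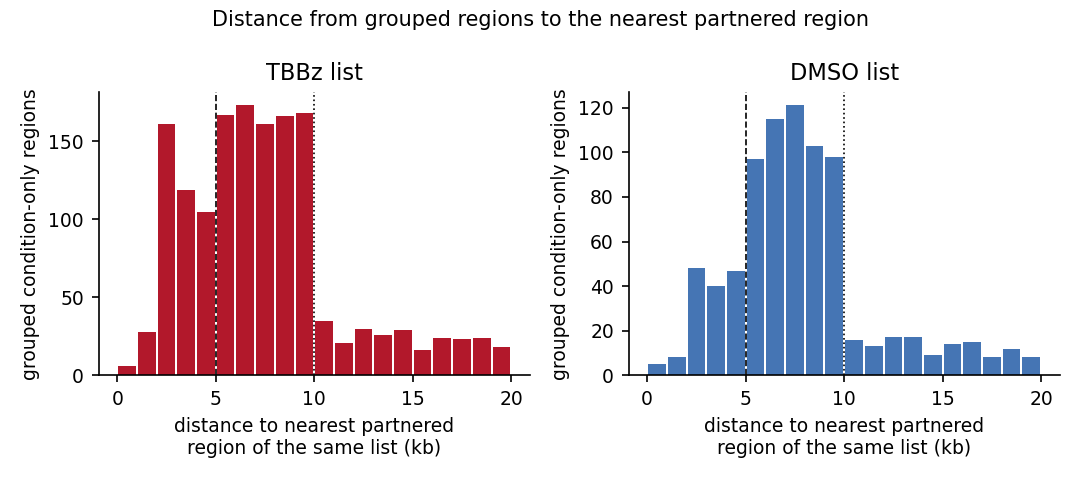
Number of grouped condition-only regions (vertical axis) by distance to the nearest partnered region of the same list in bins of 1 kb (horizontal axis), TBBz-only on the left and DMSO-only on the right. The dashed line marks 5 kb, the reach of the local filter, and the dotted line 10 kb, the neighbour distance of the rule. With DMSO 47 regions fall in the bin before 5 kb and 97 in the bin after it, against 105 and 167 with TBBz.

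Grouped TBBz-only regions stood late in the TBBz list, at a median place of 19267 (quartiles 15543 and 22089). Lone TBBz-only regions stood later still, at 21544 (19361 and 23294), and partnered regions with a neighbour much earlier, at 10212. A late place was not particular to TBBz-only regions. Grouped DMSO-only regions had a median place of 18385 in the DMSO list and lone ones 19158. As a share of the list, the medians of grouped and lone regions were 77.7% and 86.9% with TBBz, and 84.3% and 87.8% with DMSO. In the first 50% of the TBBz list there were 268 grouped regions, 13.3% of the set, against 28 lone ones, 0.870% of theirs. Among the first 10000 places 159 were grouped and 15 were lone. TBBz-only regions of higher rank were therefore mostly grouped ones. They made up 0.766% of the first 10% of the list and 18.9% of the last 10%. By kind, grouped regions with neighbours of both kinds stood earliest, at a median of 16188, and those with partnered or TBBz-only neighbours alone stood at 19494 and 19888.

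**Figure D4:**
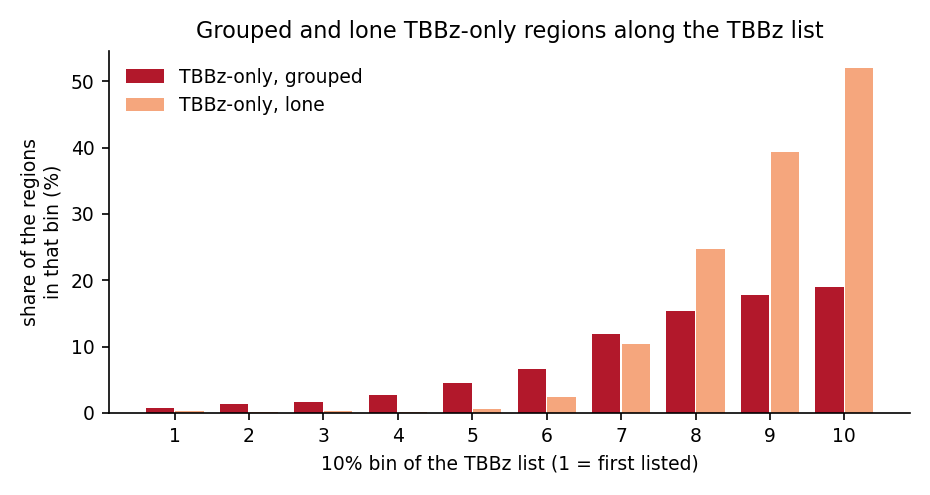
Share of the regions in each 10% of the TBBz list (vertical axis, %) that are grouped TBBz-only (dark bars, left) or lone TBBz-only (light bars, right), from the first listed to the last (horizontal axis). Grouped regions exceed lone ones in bins 1 to 7, with 11.9% and 10.4% in bin 7, and lone ones exceed them from bin 8 on.

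The first 10 grouped regions were chr16:730369-730569 at place 294, chr1:154973437-154973637 at 442, chr16:1823039-1823239 at 484, chr12:122241910-122242110 at 590, chr19:39342715-39342915 at 713, chr17:27278344-27278544 at 746, chr17:17743274-17743474 at 977, chr19:1170065-1170265 at 981, chr16:639096-639296 at 1063 and chr4:668283-668483 at 1170. They were of mixed kinds. The nearest DMSO centre was 50826 bp away for the region at place 484 and 48396 bp away for that at 746, and their nearest neighbours were TBBz-only regions 1637 and 1733 bp off. The region at place 713 lay 2270 bp from DMSO, beside 2 partnered regions. The nearest CK2α centre was 9918 bp away or farther for all 10.

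CK2α was rare at grouped TBBz-only regions. A CK2α centre lay within 1 kb of 127 of the 2018, which is 6.29% (5.27 to 7.44%), against 42.2% of all TBBz regions. It lay within 1 kb of 50.5% (49.4 to 51.5%) of the partnered regions with a neighbour. For lone TBBz-only regions the share was 7.21% (6.34 to 8.16%), so that grouped and lone regions differed by -0.916 percentage points, with a 95% interval from -2.30 to 0.470 that includes 0. The difference was -2.17 points (-3.97 to -0.374) when the TBBz list was shortened to the DMSO length. It was -1.48 points (-2.91 to -0.0503) when regions near region-free stretches were left out. With a partner distance of 1 kb it had the other sign, at 2.68 points (1.22 to 4.14). The intervals of differences are normal ones that cover counting error only and are too narrow. Whether 0 lies within them is therefore no test. Within 5 kb the order was the other way, at 15% (13.5 to 16.6%) of grouped and 9.17% (8.19 to 10.2%) of lone regions (46.9% of all TBBz regions), a difference of 5.85 points (4.0 to 7.70). That excess was found where partnered sites were at hand: the share within 5 kb was 20.5% for grouped regions with partnered neighbours alone, 13.3% for those with both kinds, and 8.90% for those with TBBz-only neighbours alone. Within 1 kb the same kinds had 6.88%, 4.21% and 6.41%, with overlapping intervals.

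CK2α did not follow the place in the list among grouped regions as it did among partnered ones. In the first 40% of the list, 2 of 158 grouped regions (1.27%, 0.154 to 4.50%) had CK2α within 1 kb, against 6632 of 9740 partnered regions (68.1%). In the first 20% it was 0 of 52 grouped regions, which allows a share of up to 6.85% (upper bound of the exact interval), against 71.1% of partnered ones. In the last 20% it was 7.06% of grouped regions (5.48 to 8.92%) and 20.9% of partnered ones (19.1 to 22.9%). Lone regions of the last 20% had 6.59% (5.60 to 7.69%). In each 20% of the list, grouped regions thus had CK2α less often than partnered ones. Places were matched only roughly, since grouped regions stood more often in the later part of each of these bins. The CK2α share of partnered regions fell with place, so part of the difference can come from this. The intervals cover counting error only and are too narrow, so their separation is no test. The CK2α list was made from cells without TBBz and called with no control library, as the caller's command names none. How much of the difference comes from CK2α reads that pile up where Pol II is strong without TBBz was not tested.

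**Figure D5:**
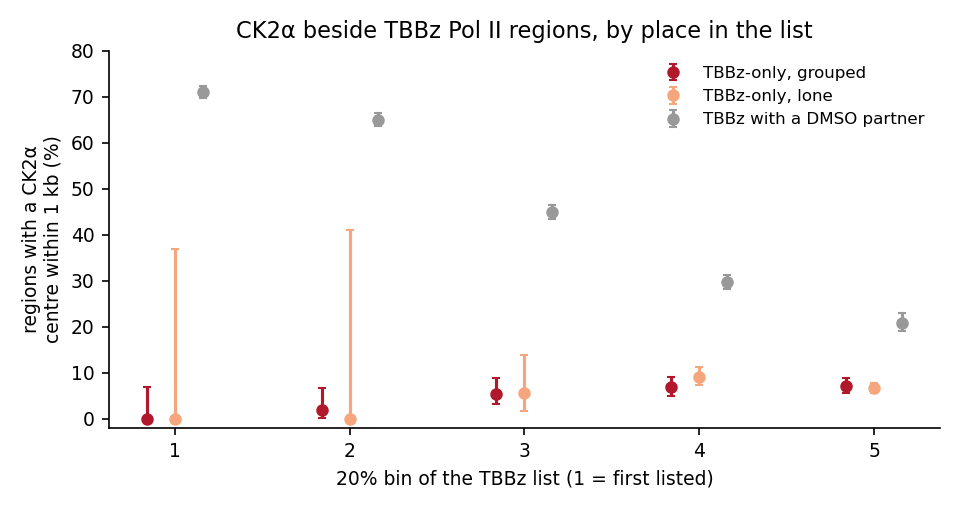
Share of TBBz Pol II regions with a CK2α centre within 1 kb (vertical axis, %, with exact 95% binomial intervals) by successive 20% bins of the TBBz list (horizontal axis), for grouped TBBz-only, lone TBBz-only and partnered regions from left to right. Partnered regions lie between 20.9% and 71.1%, and grouped ones at 7.06% or less in every bin.

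The first grouped regions in list order with CK2α within 1 kb were chr1:154947478-154947678 at place 6058, with a CK2α centre 462 bp away, chr1:227916305-227916505 at 9499, with 194 bp, and chr1:155210917-155211117 at 11087, with 5 bp. Among the 127, the median distance was 134 bp. They belonged to 110 of the 1428 runs, and 45 of the 483 runs of 2 or more had such a member. Of the 81 runs of 3 or more, 6 had a member with CK2α within 1 kb, and of the 20 longest only chr12:65063372-65082208 did, 320 bp from its last member. Grouped DMSO-only regions were richer in CK2α, at 24.9% (22.3 to 27.7%), against 47.5% of all DMSO regions, and lone DMSO-only regions had 15.3% (13.7 to 16.9%). The CK2α cells resembled the DMSO cells in having no inhibitor, so the 2 directions are not on the same footing.

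Partnered sites beside a grouped region also differed from other partnered sites. There were 1537 partnered TBBz regions with a grouped region within 10 kb, and CK2α lay within 1 kb of 41.5% of them (39.0 to 44.0%), against 52.5% (51.8 to 53.2%) of the 18009 others. Their places were similar, with medians of 10560 and 9896. In the first 20% of the list the shares were 51.9% beside grouped regions and 72.8% elsewhere, and in the next 20% 47.6% and 66.3%. In the middle 20% they were 39.0% and 45.4%, in the next 34.8% and 29.2%, and in the last 20.4% and 21.0%, so the order was the other way in the fourth of these bins and the last differed little. These shares by bin were not tested. A partnered region near a grouped one has another TBBz region within 10 kb by definition, whereas the others include regions with none. Among all partnered regions with a neighbour the share within 1 kb was 50.5%. No annotation was used to compare the kinds of sites.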

How the data were processed

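Per the submitters' processing notes, reads were aligned with Bowtie to hg19 and peaks were called with HOMER. No version of these tools was at hand. The authors ran HOMER findPeaks on each library by itself, per the file headers, in factor style and centred, with regions of 200 bp at least 500 bp apart, fragments of 150 bp, a false discovery rate of 0.001 and no control library named. A 4-fold excess over the surrounding 10 kb was required. The deposited columns hold positions and a score that is 1 for every region, so no tag value per region was used. The libraries held 19021404 (CK2α), 22345614 (Pol II, TBBz) and 15466579 (Pol II, DMSO) tags, with tag thresholds of 12, 13 and 11.

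Centres were taken as the middle of the deposited interval, and starts were raised by 1 for printing. Grouped regions are 201 bp wide. Distances run between centres. The 20 longest runs, the first 10 grouped regions and the 5 regions on either side of each threshold are named. The members, the lists and the rule were chosen with earlier results of these data known. The counts between adjacent DMSO centres, the comparison in 20% bins of the list and the leaving out of regions near region-free stretches were chosen after seeing the data. Functions were tested on simulated lists with planted runs. No chance test was made. The planned assignment to genes was not run, for want of an hg19 annotation here. Tools were SciPy 1.17.1, pandas 2.3.3, NumPy 2.4.6, Python 3.11.15 and Matplotlib 3.10.9.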

Additional observations from a re-analysis of the deposited data

How the results depend on the processing

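The numbers moved with the distances that define the set, in part by construction. With a neighbour within 5 kb there were 1108 grouped TBBz-only and 432 grouped DMSO-only regions, 21.2% of TBBz-only regions were grouped (38.5% as reported), and 3 runs held 4 or more; with 20 kb the DMSO-only number was 1735, the share 57.3%, the runs of 4 or more 48 and the share of runs on 1 side 74.6%. Requiring the neighbour to be unpartnered gave 1073 with TBBz, 469 with DMSO and a share of 20.5%. With the TBBz list shortened to the DMSO length there were 1329 grouped TBBz-only regions, a share of 41.8%. Partner distances of 1 and 5 kb gave shares of 43.8% and 33.2%; at 1 kb the runs on 1 side were 84.6% and CK2α was within 1 kb of 9.91% of grouped regions. CK2α overlap of at least 1 bp was found at 3.91%, and a CK2α centre within 5 kb at 15%. The difference in CK2α share from lone regions was -0.916 points as reported. With the shortened list it was -2.17 points, and without regions near region-free stretches -1.48 points. It changed sign with a partner distance of 1 kb (2.68 points) and a CK2α distance of 5 kb (5.85 points). The intervals with these changed settings exclude 0, but they cover counting error only and are no test. Leaving out chromosome Y moved no value beyond its interval or by over 1.5 times. Leaving out regions near region-free stretches kept 1714 grouped TBBz-only regions and 13 runs of 4 or more. It moved only the difference in CK2α share by over 1.5 times, and that difference stayed inside the interval reported for it. No paired analysis was possible because there is a single library in every group. No tags per region are at hand, so the effect of depth beyond list length was not tested.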
